A study of Mus musculus with 6 samples.

Results

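The 10 genes described here encode histone lysine demethylases, enzymes that remove methyl groups from lysines of histone H3: Kdm1a, Kdm2a, Kdm2b, Kdm4a, Kdm4b, Kdm4c, Kdm5a, Kdm5b, Kdm6b and Kdm7a. They were taken by symbol from a table of 32061 genes, and all 10 passed the filter on low counts. The messenger RNA came from 6 samples of cultured mouse biliary epithelium, the lining of the bile ducts. In 3 samples, labelled competent for primary cilia, the cells had not received 4OHT, and in the other 3, labelled depleted of primary cilia, they had. The name 4OHT commonly stands for 4-hydroxytamoxifen, a drug that activates Cre recombinase fused to a modified oestrogen receptor. The labels give neither the deleted gene, the Cre driver, the strain nor the age of the mice, and 4OHT and cilium loss cannot be told apart in this design. The bile ducts of both groups were picked by hand from digested liver, passaged 4 to 5 times as organoids and then grown flat on collagen. The labels leave it unsaid whether replicates were separate mice or separate cultures, so every p-value measures only how far these samples spread, and that spread may be technical.

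Methyl groups on histone H3 mark the activity of the genes beneath them, and each demethylase acts on few lysines. Methylated H3K4 marks active promoters and enhancers and is erased by Kdm1a, a flavin-dependent oxidase, and by the KDM5 enzymes. Trimethylated H3K27, laid down by Polycomb repressive complex PRC2, marks silenced genes and is erased by the KDM6 enzymes. H3K9 methylation is a mark of heterochromatin and H3K36 methylation a mark of transcribed gene bodies. KDM4 enzymes act on both, KDM2 enzymes on H3K36, and Kdm7a on H3K9 and H3K27. All of these except Kdm1a share an iron-dependent catalytic domain called JmjC.

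Total counts ranged from 26293486 to 36998935 per library, and the 10 genes had between 871 and 12543 counts in each library. Across the whole table the groups differed widely: 69.2% of the 13839 genes tested differed at an adjusted p below 0.05 in edgeR's quasi-likelihood test with Benjamini-Hochberg adjustment, 34.9% higher and 34.3% lower in the depleted cells. That test gives every adjusted p below unless another is named, and "rose" and "fell" mean past this threshold. The biliary markers Krt7 and Spp1 were abundant in both groups, at 3150 and 2382 CPM (counts scaled to library size, with TMM normalization between libraries) in competent cells, whereas the biliary keratin gene Krt19 was low, at 12.5 ± 1.13 CPM (SD, n = 3). The summed level of 6 biliary markers was 7187 to 7333 CPM in competent and 5251 to 5507 CPM in depleted libraries, with 5 of them lower and 1 (Sox9) higher. Marker sums of other liver cells were 18.9 to 25.8 against 16.1 to 18.1 CPM for hepatocytes, 1.27 to 1.56 against 2.72 to 3.49 CPM for fibroblasts, 0 to 0.159 against 0.198 to 0.499 CPM for endothelium and 50.6 to 50.8 against 45.4 to 51.3 CPM for immune cells. Of their defining genes, Cyp3a11, Col3a1 and Lum had no count in any library. The immune sum was mostly Csf1r, at 46.7 to 47.5 CPM in competent and 40.0 to 45.1 CPM in depleted libraries. Csf1r fell (adjusted p = 0.0496), while Cd68 rose from 3.42 to 5.41 CPM. The leukocyte gene Ptprc was at most 0.312 CPM, and Adgre1 and Cd3e had at most 1 count per library. The part of these marker shifts in the demethylase values was not tested, and in bulk RNA fewer cells of a type and less RNA per cell cannot be told apart.

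Of the 10 demethylase genes, 9 rose and 1 fell in depleted cells, against a background of 34.9% and 34.3% of all genes. Kdm6b rose most, 5.86-fold, followed by Kdm4c at 2.20-fold, and these were the 2 members past 2-fold, a change that 7.38% of all genes showed upwards. Kdm2b was the member that fell. The smallest change was the 1.08-fold rise of Kdm1a. The median log2 change of the 10 was 0.58, beside -0.006 for all genes tested. For all 10 the 3 competent and 3 depleted libraries did not overlap, as for 72.5% of all genes.

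**Figure D1:**
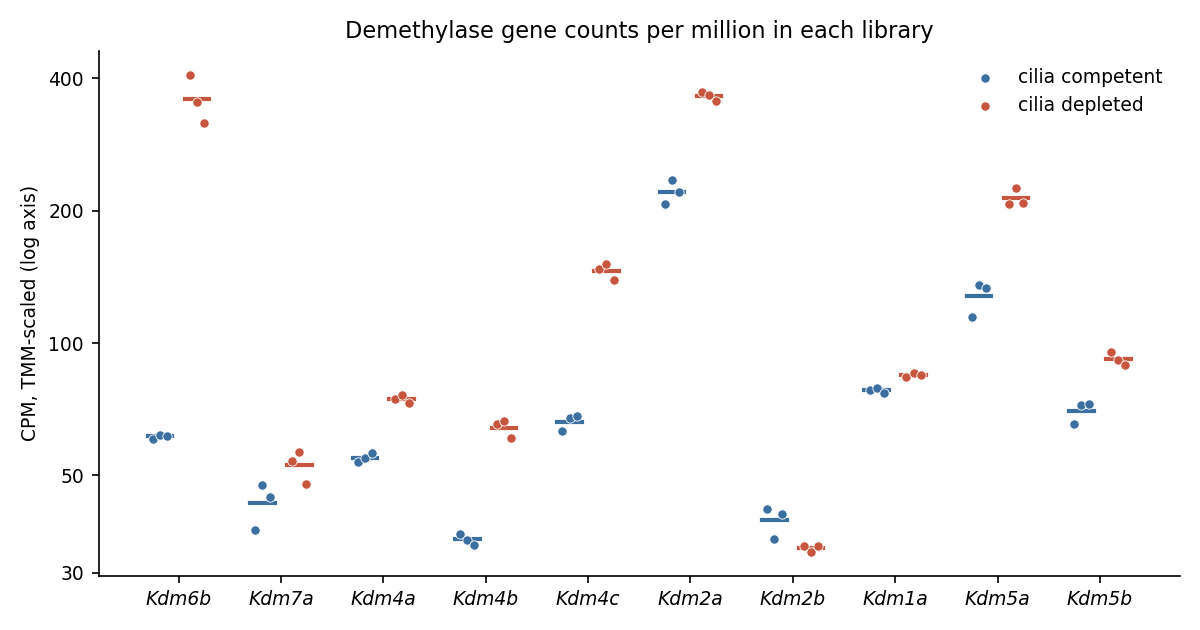
Level of the 10 demethylase genes in each library, in TMM-scaled CPM on a log axis, for cilia competent (blue) and cilia depleted (red) samples; points are libraries and bars are means of 3. Kdm6b stands furthest apart, at 60.6 to 61.9 CPM in competent and 317 to 408 CPM in depleted libraries, and Kdm2b alone is lower in the depleted group.

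Kdm6b (ENSMUSG00000018476; GRCm38 chromosome 11, 69398508 to 69413675, minus strand), also called JMJD3, erases H3K27 methylation and is known as an inducible gene of inflammatory responses. Its level was 60.6, 61.9 and 61.3 CPM in the competent libraries and 408, 354 and 317 CPM in the depleted libraries. The competent libraries were nearly level, while every depleted library lay far above them. The group means were 61.3 ± 0.671 and 359 ± 45.7 CPM (SD, n = 3), which is a log2 change of 2.55 (SE 0.076, adjusted p = 7.76e-12). Of the 13839 genes tested, 92 had a larger log2 rise. The exons of Kdm6b overlap those of the opposite-strand gene Kdm6bos over 4.11% of their length. Whether reads were counted by strand is unknown here.

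The genes whose 6 library values ran closest to those of Kdm6b, by Euclidean distance of centred log2 CPM among 10492 genes, were Irf1, Elmsan1, Lif, Arid5a and Zfp941. Their distances were 0.21 to 0.26 and their log2 changes 2.46 to 2.73. Irf1, a transcription factor of interferon responses, went from 79.7 to 439 CPM, and Lif, a cytokine of the interleukin-6 family, from 110 to 610 CPM.

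Kdm7a (ENSMUSG00000042599; chromosome 6, 39136623 to 39206789, minus strand), which acts on H3K9 and H3K27, changed little. It had 37.5, 47.6 and 44.7 CPM in competent and 53.8, 56.6 and 47.7 CPM in depleted libraries. The groups did not overlap, but the highest competent and lowest depleted libraries were almost level. The means were 43.3 ± 5.2 and 52.7 ± 4.55 CPM (SD, n = 3), a 1.22-fold rise (log2 change 0.28, SE 0.082, adjusted p = 0.00785). The log2 change was 0.19 without competent replicate 1 (adjusted p = 0.0257) and -0.019 with the transcript-length trend described below removed (adjusted p = 0.786), so the rise of Kdm7a did not hold under that correction.

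The other KDM6 genes moved less than Kdm6b. Kdm6a, the X-linked paralogue also called UTX, rose 1.98-fold from 30.6 ± 2.17 to 60.8 ± 2.7 CPM (SD, n = 3), and its Y-linked relative Uty rose 1.57-fold. PRC2 writes H3K27 methylation. Of its 4 core genes 3 rose and 1 did not pass, beside 34.9% of all genes higher and 34.3% lower. With the length trend removed 3 were higher and 1 lower, and with upper-quartile scaling 1 was lower too. The catalytic subunit genes Ezh1 and Ezh2 rose 1.52-fold and 1.24-fold, and Eed, which encodes the subunit that reads the mark, rose 1.46-fold.

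The 3 KDM4 genes, whose products erase trimethylated H3K9 and H3K36, all rose, and by different amounts. Kdm4c (ENSMUSG00000028397; chromosome 4, 74242497 to 74405860, plus strand) had 62.9, 67.5 and 68.1 CPM in competent and 148, 151 and 139 CPM in depleted libraries. Every depleted library thus held over 2 times the highest competent value, and the mean rose 2.20-fold (log2 change 1.14, SE 0.048, adjusted p = 2.45e-10). Kdm4b (ENSMUSG00000024201; chromosome 17, 56326062 to 56402870, plus strand) had 36.9, 35.6 and 34.8 CPM against 65.5, 66.3 and 60.7 CPM, a 1.79-fold rise (log2 change 0.84, SE 0.051, adjusted p = 8.20e-09). Kdm4a (ENSMUSG00000033326; chromosome 4, 118136957 to 118180043, minus strand) had 53.7, 54.6 and 56.2 CPM against 74.5, 76 and 73 CPM, a 1.36-fold rise (log2 change 0.44, SE 0.044, adjusted p = 8.66e-07). The libraries of each group were tightly grouped for all 3 genes. None of the 50-base stretches of the KDM4 transcripts occurred in another gene's transcripts, so reads of that length would not be shared between these paralogues.

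Kdm4d, a testis-enriched paralogue, lay below the filter and was not tested in the main fit. With no filter on low counts, 11 demethylase genes outside the 10 were called higher in place of 10, beside 23.8% of all genes. The added call was Kdm4d. It had 2 counts in each competent library and 12, 10 and 8 in the depleted libraries. The ratio of summed counts, 30 against 6, scaled for library size, was 5.78 with a 95% exact counting interval of 2.37 to 17.0, which covers counting error only.

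Ratios between paralogues within a library do not depend on how libraries are scaled. Per kilobase of main transcript, the ratio of Kdm4a to Kdm4c was 1.09, 1.04 and 1.05 in competent libraries and 0.645, 0.643 and 0.673 in depleted libraries. The ratio was lower in every depleted library than in any competent one. Its position relative to 1 depends on the length used: in plain CPM, and per kilobase of all annotated exons, Kdm4a was below Kdm4c in competent cells too. The ratio of Kdm4a to Kdm4b went from 2.14 ± 0.11 to 1.62 ± 0.05, and that of Kdm4b to Kdm4c from 0.496 ± 0.036 to 0.403 ± 0.003 (SD, n = 3). None of the 5 paralogue ratios computed overlapped between groups, and 72.5% of all single genes did not overlap either. The share over other gene pairs was not computed. Ratios among the KDM4 genes reuse the same genes and are not separate observations. Each of the 5 ratios had p = 0.1 in an exact two-sided permutation test (adjusted p = 0.1), the smallest value that 3 libraries against 3 can give.

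**Figure D2:**
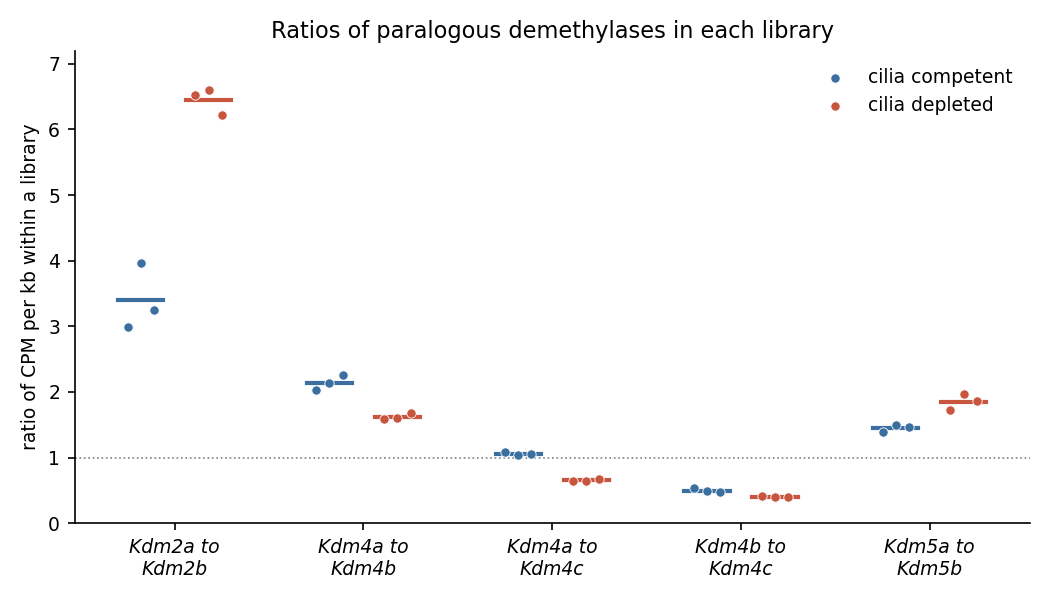
Ratio of the per-kilobase levels of paralogous demethylase genes within each library (linear axis from 0; dotted line, equal levels); points are libraries and bars are means of 3. Kdm2a to Kdm2b moves from 2.99 to 3.96 in competent (blue) to 6.22 to 6.60 in depleted (red) libraries. Kdm4a to Kdm4c moves from 1.04 to 1.09 down to 0.643 to 0.673, levels that depend on the transcript length used.

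Kdm2a (ENSMUSG00000054611; chromosome 19, 4314419 to 4398285, minus strand) and Kdm2b (ENSMUSG00000029475; chromosome 5, 122870665 to 122989823, minus strand) encode H3K36 demethylases that bind unmethylated CpG dinucleotides through a CXXC zinc finger, and they moved in opposite directions. Kdm2a had 207, 235 and 220 CPM in competent and 373, 366 and 355 CPM in depleted libraries. The depleted libraries lay well above and closer together, and Kdm2a rose 1.65-fold (log2 change 0.72, SE 0.05, adjusted p = 2.90e-08). Kdm2b had 41.9, 35.8 and 40.9 CPM against 34.5, 33.5 and 34.5 CPM. Competent replicate 2 came close to the depleted libraries, and the fall was small (log2 change -0.21, SE 0.061, adjusted p = 0.00719). The ratio of Kdm2a to Kdm2b rose accordingly from 3.40 ± 0.51 to 6.45 ± 0.2 (SD, n = 3), the widest shift of the 5 ratios.

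A count over the Kdm2b gene joins transcripts from several starts, among them a short form, begun inside the gene, that is known to lack the JmjC domain. In addition, 12.5% of the 50-base stretches of Kdm2b transcripts also occur, on either strand, in transcripts of other genes. Among these is Rnf34, which overlaps on the opposite strand, so its part depends on whether reads were counted by strand. The Kdm2b value is therefore less certain than the others. For the other members the share of such stretches was at most 2.19%. The genes closest to Kdm2b over the 6 libraries were Ift57, Snrpa, Slc31a1, Mcam and Eif2d, with log2 changes of -0.23 to -0.19. Ift57 encodes a component of intraflagellar transport, the traffic system of the cilium.

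Start regions were available from RefSeq (GRCm38.p6) for 6 of the 10 members, and 3 are shown because they belong to the KDM4 paralogues that diverged and to the gene that fell. Each runs 5′ to 3′ on the gene's strand from 250 bases before to 50 bases after the start, with capitals marking a motif match:
Kdm4c, second start, chr4:74251629-74251928, plus strand: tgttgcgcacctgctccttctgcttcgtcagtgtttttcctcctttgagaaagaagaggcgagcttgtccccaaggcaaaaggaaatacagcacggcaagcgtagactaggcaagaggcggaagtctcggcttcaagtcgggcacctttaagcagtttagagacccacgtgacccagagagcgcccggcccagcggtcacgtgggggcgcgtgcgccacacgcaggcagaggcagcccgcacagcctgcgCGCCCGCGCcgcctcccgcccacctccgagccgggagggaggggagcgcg
Kdm4a, chr4:118179994-118180293, minus strand: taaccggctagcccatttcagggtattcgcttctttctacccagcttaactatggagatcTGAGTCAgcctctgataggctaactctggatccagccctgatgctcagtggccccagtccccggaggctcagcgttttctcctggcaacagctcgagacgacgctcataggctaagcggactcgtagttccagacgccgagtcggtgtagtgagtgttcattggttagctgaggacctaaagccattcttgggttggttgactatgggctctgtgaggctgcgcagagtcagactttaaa
Kdm2b, internal start, chr5:122900301-122900600, minus strand: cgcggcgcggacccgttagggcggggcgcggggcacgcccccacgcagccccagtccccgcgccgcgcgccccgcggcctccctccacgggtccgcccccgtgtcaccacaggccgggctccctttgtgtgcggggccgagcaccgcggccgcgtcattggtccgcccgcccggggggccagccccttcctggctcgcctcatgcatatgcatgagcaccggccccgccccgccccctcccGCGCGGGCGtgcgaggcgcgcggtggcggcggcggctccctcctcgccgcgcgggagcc

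The motifs searched on both strands were AP-1 (TGANTCA), CRE (TGACGTCA), EGR (GCGNGGGCG), NF-kB and the CArG box bound by SRF; the EGR motif can overlap other GC-rich sites. Kdm4a held an AP-1 match, as did 7.81% of 32851 promoters of the same length. The shown starts of Kdm4c and Kdm2b each held an EGR match, as did 5.55% of promoters. A Kdm2b start that overlaps the shown one held the same match. The Kdm2b starts further upstream and the upstream Kdm4c start held no EGR match. Kdm7a also held an EGR match, and Kdm5b and another start of Kdm2b each held an NF-kB match (8.46% of promoters). The Kdm1a start held no match to any of the motifs. The internal Kdm2b start had 49 CpG dinucleotides, the Kdm4c start 28, the Kdm4a start 13 and Kdm7a 65, against a median of 7 over all promoters. The upstream Kdm4c start had none. The EGR motif itself contains CpG, and the share of matches among promoters rich in CpG was not computed. These matches describe letters and not binding.

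Among H3K4 demethylases, Kdm5a changed most. Kdm5a (ENSMUSG00000030180; chromosome 6, 120364124 to 120444574, plus strand), first known as a binding partner of the retinoblastoma protein, had 114, 135 and 133 CPM in competent and 207, 225 and 208 CPM in depleted libraries. The groups were far apart, and Kdm5a rose 1.67-fold (log2 change 0.74, SE 0.061, adjusted p = 1.64e-07). Its paralogue Kdm5b (ENSMUSG00000042207; chromosome 1, 134560171 to 134635285, plus strand) had 65.6, 72.2 and 72.6 CPM against 95.5, 91.3 and 89.1 CPM, a 1.31-fold rise (log2 change 0.39, SE 0.05, adjusted p = 1.14e-05). Within libraries the ratio of Kdm5a to Kdm5b per kilobase went from 1.45 ± 0.053 to 1.85 ± 0.12 (SD, n = 3). The other KDM5 genes were Kdm5c on the X chromosome, which rose 1.46-fold, and Kdm5d on the Y chromosome, which rose 1.15-fold. The Kdm5d call did not hold with DESeq2 (adjusted p = 0.0542), with upper-quartile scaling (adjusted p = 0.0606), or without competent replicate 1, depleted replicate 2 or depleted replicate 3 (adjusted p = 0.0573, 0.0675 and 0.0728), and its sign turned with the length trend removed (log2 change -0.064).

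Kdm1a (ENSMUSG00000036940; chromosome 4, 136550540 to 136602723, minus strand), also called LSD1, had 78.3, 79.1 and 77.1 CPM in competent and 83.8, 85.3 and 84.6 CPM in depleted libraries. The libraries of each group lay close together without overlap between groups, and the rise was 1.08-fold (log2 change 0.11, SE 0.04, adjusted p = 0.0217). The call was lost with upper-quartile scaling (adjusted p = 0.18), with DESeq2 (adjusted p = 0.0606), with no filter on low counts (adjusted p = 0.0852), with the length trend removed (adjusted p = 0.272), and without competent replicate 2 or 3 or depleted replicate 2 (adjusted p = 0.051, 0.0985 and 0.071). Kdm1a works in the CoREST complex, and of 7 partner genes 3 rose and 4 fell, beside 34.9% and 34.3% of all genes. With the length trend removed 3 of the partner genes were higher and 3 lower. Phf21a, which encodes a reader of unmethylated H3K4, rose 2.05-fold from 33.0 ± 1.43 to 67.7 ± 1.89 CPM, and Rcor2, a low-level CoREST gene, rose 2.05-fold from 2.61 to 5.34 CPM. The histone deacetylase gene Hdac2 fell 1.49-fold from 118 ± 4.84 to 79.0 ± 3.73 CPM (SD, n = 3).

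Kdm2b also works in a complex, the Polycomb variant PRC1.1, and of 8 partner genes 5 rose, 1 fell and 2 did not pass, again beside 34.9% and 34.3% of all genes. Skp1a, which encodes the SKP1 subunit, was the one that fell, 3.44-fold from 227 ± 6.36 to 65.6 ± 6.68 CPM (adjusted p = 3.38e-11). Bcor, the corepressor gene of the complex, rose 2.27-fold from 51.1 ± 3.5 to 116 ± 7.13 CPM, and Pcgf1 rose 1.45-fold. With upper-quartile scaling, with the length trend removed, at an adjusted p below 0.01 or without competent replicate 1, 3 partner genes rose in place of 5, and with the length trend removed 2 fell in place of 1. Polycomb complexes are known to silence the Ink4/Arf locus, where Cdkn2a and Cdkn2b lie side by side, and there Cdkn2a fell 1.57-fold and Cdkn2b rose 1.49-fold.

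The members have long transcripts, and transcript length ran with the change over the whole table. Their main transcripts were 3008 to 10944 nt long, with a median of 5917 nt beside 2896 nt for all genes tested. Spearman's rho of length with log2 change was 0.322 over 13831 genes; this is across genes, which are no independent replicates. The 6398 genes within the members' length range had a median log2 change of 0.16. Among the 10 members rho was 0.055, and the longest members were not those that rose most. When a smooth trend with length was removed from each library, 7 members rose, 1 fell and 2 (Kdm1a and Kdm7a) did not pass, beside 33.9% of all genes higher and 35.1% lower. The median of the 10 became 0.38, beside 0 for all genes.

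Each member was lower with that trend removed. Kdm6b was still 4.98-fold higher (log2 change 2.32) and Kdm4c 2.00-fold higher (log2 change 1.00). Kdm4b and Kdm4a had log2 changes of 0.68 and 0.35. The long-transcript members Kdm5a, Kdm2a and Kdm5b went to 0.41, 0.44 and 0.10, the last with adjusted p = 0.0294. The fall of Kdm2b was larger, with a log2 change of -0.40. The part of transcript length in the values as first fitted was not tested beyond this correction.

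**Figure D3:**
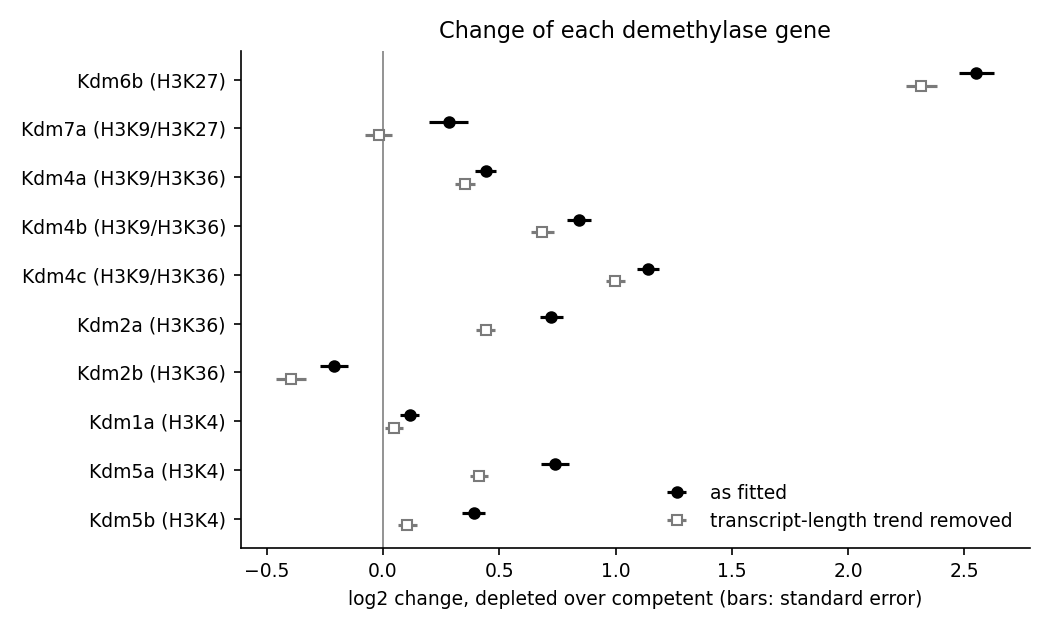
Log2 change of each demethylase gene, depleted over competent, as fitted by edgeR (black circles) and with the trend of transcript length removed (open squares); bars are standard errors and the lysines acted on stand in brackets. Kdm6b is at 2.55 and 2.32, Kdm2b at -0.21 and -0.40, and Kdm7a at 0.28 and -0.019.

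**Figure D4:**
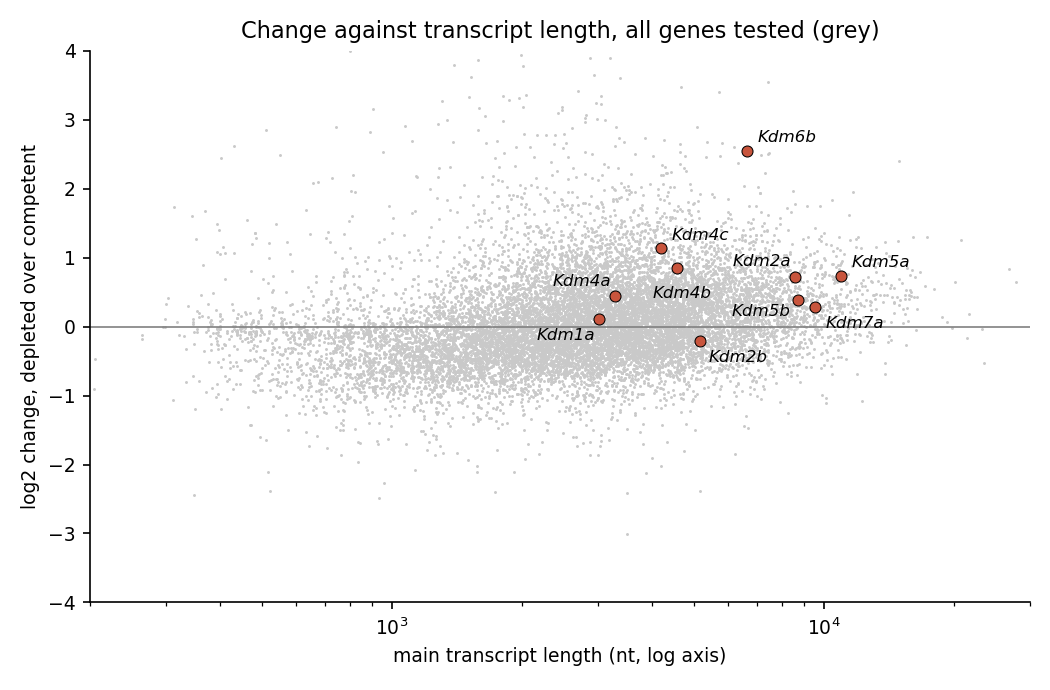
Log2 change, depleted over competent, against the length of the main transcript (nt, log axis) for all genes tested with a known length (grey) and the 10 demethylase genes (red); 59 genes lie beyond the axes. Kdm6b stands at 2.55, above the other 9 members, while Kdm2b lies below 0.

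Levels of different genes were compared per kilobase of main transcript. In competent cells Kdm1a (26.0 ± 0.32 CPM per kb) and Kdm2a (25.7 ± 1.65) stood highest and their libraries overlapped. Kdm4a (16.7 ± 0.38), Kdm4c (15.8 ± 0.67), Kdm5a (11.7 ± 1.06) and Kdm6b (9.21 ± 0.1) followed without overlap. Kdm5b (8.05 ± 0.46), Kdm4b (7.81 ± 0.23) and Kdm2b (7.64 ± 0.63) did not differ beyond their spread, and Kdm7a was lowest at 4.52 ± 0.54 CPM per kb (SD, n = 3).

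In depleted cells Kdm6b stood first at 54.0 ± 6.87 CPM per kb, ahead of Kdm2a (42.5 ± 1.04), Kdm4c (34.8 ± 1.52), Kdm1a (28.1 ± 0.26) and Kdm4a (22.7 ± 0.46). Kdm5a (19.5 ± 0.92), Kdm4b (14.0 ± 0.67), Kdm5b (10.6 ± 0.38), Kdm2b (6.60 ± 0.11) and Kdm7a (5.51 ± 0.48) came after, and no neighbours in this order overlapped. Of the summed per-kilobase level of the 10 genes, Kdm6b held 6.92% ± 0.13 in competent and 22.6% ± 1.97 in depleted cells, and Kdm1a held 19.5% ± 0.62 and 11.8% ± 0.57 (SD, n = 3). Dividing by all annotated exons in place of the main transcript put Kdm6b at the same places, 6 and 1, but changed much of the remaining order. Kdm2a then stood above Kdm1a and Kdm4c above Kdm4a in competent cells, Kdm4a moved from place 5 to 7 in depleted cells, and Kdm2b in place of Kdm7a was lowest in both groups.

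Competent replicate 1 was the lowest competent library for 7 of 10 members and for 34.1% of all genes tested. Depleted replicate 3 was the lowest depleted library for 7 of 10 members and for 35.5% of all genes. Whether the members differ from other genes in this was not tested.

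Of the demethylase genes outside the 10, 14 were tested. There were 10 that rose and 2 that fell, beside 34.9% and 34.3% of all genes, and their median log2 change was 0.49. With the length trend removed 9 were higher and 2 lower, with a median of 0.32. Jmjd1c, a relative of the H3K9 demethylases, rose most, 3.17-fold from 123 ± 9.41 to 389 ± 17.3 CPM (SD, n = 3). The H3K9 demethylase genes Kdm3a and Kdm3b rose 1.91-fold and 1.56-fold, Hr, which encodes the hairless protein, rose 1.75-fold, and Phf8, an H3K9 demethylase gene of the KDM7 group, rose 1.35-fold. Kdm8 rose 1.24-fold, from 4.19 to 5.16 CPM. Its call did not hold with DESeq2 (adjusted p = 0.111), with upper-quartile scaling (adjusted p = 0.0737), or without competent replicate 2 or 3 or depleted replicate 2 or 3 (adjusted p = 0.0989, 0.12, 0.0596 and 0.106). Phf2, another KDM7 relative, fell 1.41-fold from 87.5 ± 1.22 to 62.3 ± 3.12 CPM, and Riox2 fell 1.13-fold. The Riox2 call did not hold with DESeq2 (adjusted p = 0.0565), with the length trend removed (adjusted p = 0.0544), or without competent replicate 2 or depleted replicate 1 (adjusted p = 0.0557 and 0.0539). Kdm1b, the paralogue of Kdm1a, had a log2 change of 0.018 (adjusted p = 0.799; -0.16 and adjusted p = 0.0209 with the length trend removed), and Riox1 had 0.0044 (adjusted p = 0.97).

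Counts for the methyltransferase genes that write the same marks are again to be read against 34.9% of all genes higher and 34.3% lower. Among 6 writers of H3K4 methylation 3 rose and 3 did not pass. Kmt2c and Kmt2b, of the MLL group, rose 1.61-fold and 1.57-fold, and Setd1a rose 1.23-fold. With the length trend removed 2 of these 6 genes were higher and 3 lower, and the Setd1a call did not hold (adjusted p = 0.44). The number higher was 4 with voom, no filter, at least 1 CPM in 3 samples or the replicate block. It was also 4 without competent replicate 2 or 3, and without competent replicate 1, 1 gene was lower. Among 6 writers of H3K9 methylation 5 rose and 1 fell, led by Setdb2 (2.23-fold, from 3.65 to 8.14 CPM), Ehmt1 (1.82-fold) and Setdb1 (1.47-fold). The count of 5 rests on Suv39h2 (adjusted p = 0.0437), named after its value was seen. It was 4 with DESeq2, upper-quartile scaling, no filter, the replicate block, the length trend removed, an adjusted p below 0.01 and each library left out in turn. Among 5 writers of H3K36 methylation 4 rose and 1 fell, with Ash1l at 1.85-fold, Setd2, the writer of the trimethyl mark, at 1.70-fold and Nsd3 at 1.37-fold. With the length trend removed 3 of these 5 were higher, and the log2 change of Nsd3 went from 0.45 to 0.14. The median log2 changes of these lists were 0.27 for H3K4, 0.44 for H3K9, 0.43 for the H3K27 writers and 0.45 for H3K36, beside 0.58 for the 10 demethylases and -0.006 for all genes. With the length trend removed they were -0.037 for H3K4, 0.29 for H3K9, 0.36 for H3K27 and 0.14 for H3K36, beside 0.38 for the 10 demethylases and 0 for all genes.

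**Figure D5:**
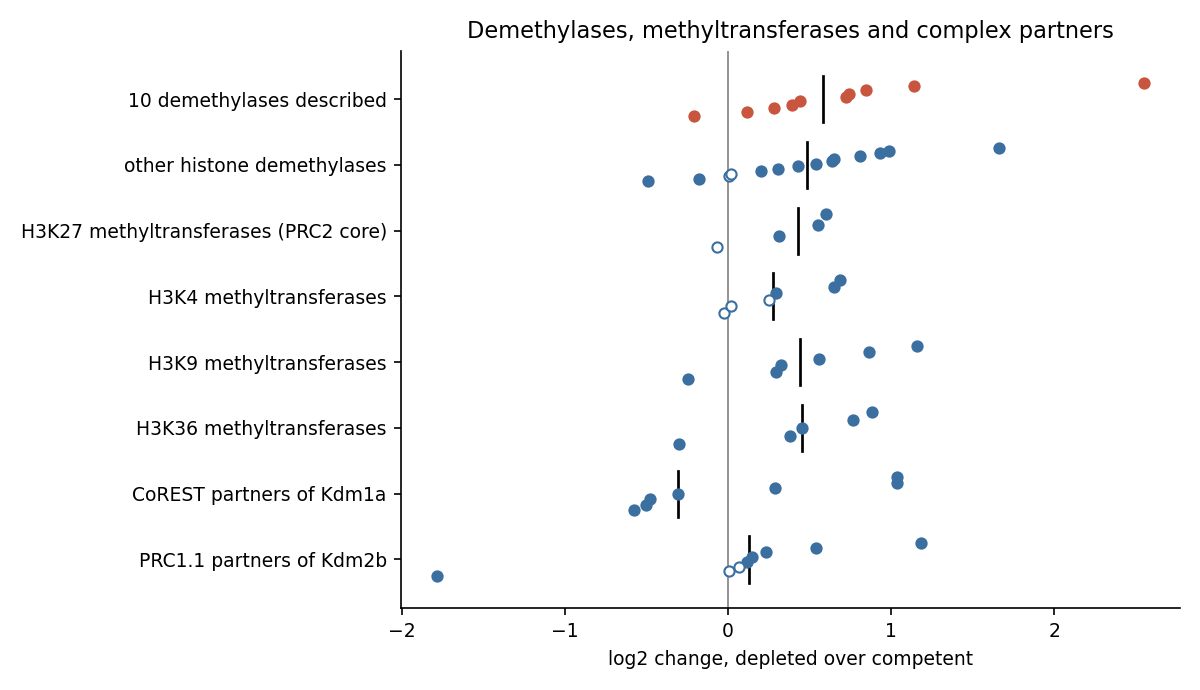
Log2 change, depleted over competent, of the 10 demethylase genes (red) and of related lists (blue); filled points passed an adjusted p below 0.05, open points did not, and vertical bars are list medians. Kdm6b at 2.55 and Skp1a at -1.78 are the extreme points among the genes drawn.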

How the data were processed

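The deposited table gives unnormalized read counts by gene for 6 libraries. Per the labels' protocols, poly-A RNA (500 ng total RNA) was made into directional libraries with 10 cycles of PCR. The submitters' processing notes name FastQC 0.11.9, MultiQC 1.3, cutadapt 1.16, STAR 2.7.1a, featureCounts, DESeq2 1.34.0 and the build GRCm38; their order, the annotation and the strand setting are not given in the sources used here. Columns named WT were taken as cilia competent and KO as depleted, with replicate numbers from the column names.

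Counts of all genes were tested in R 4.3.3 with edgeR 4.0.16 (filterByExpr, TMM, quasi-likelihood F-test, two-sided, group as the only term, adjusted p below 0.05). Alternatives were DESeq2 1.42.0, voom in limma 3.58.1, scaling by RLE or by the upper quartile, no filter, at least 1 CPM in 3 samples, a replicate block, an adjusted p below 0.01, leaving out each library, and a loess (span 0.5) of each library on transcript length used as an offset. The code was tested on simulated counts. Gene coordinates and lengths came from GENCODE M21 (GRCm38), in which 31976 of the table's identifiers were found; the main transcript is the longest principal coding one. Pairs of libraries of a group differed beyond sampling noise (chi-square per degree of freedom 5.54 to 9.86). Each library was counted once, but such differences can be technical and do not show that replicates were separate mice.

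The members and all lists were chosen with earlier results of these data known. The text names every member, every tested further demethylase, up to 3 genes of each related list with the largest change past the threshold, and the 5 genes nearest to the largest riser and to the gene that fell. The markers are named freely. A marker gene is not reported here and was left out of its list.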

Additional observations from a re-analysis of the deposited data

How the results depend on the processing

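Over the 10 demethylases and 14 alternatives (140 values), 132 kept their direction and their side of the threshold, 7 lost the call and 1 changed sign. All 7 losses were of Kdm1a (log2 change 0.11 as reported), with 0.064 under upper-quartile scaling, 0.11 with DESeq2, 0.11 with no filter on low counts, 0.048 with the length trend removed, and 0.097 to 0.11 without competent replicate 2 or 3 or depleted replicate 2; over all 6 fits with a library left out its range was 0.097 to 0.12. The sign changed for Kdm7a with the length trend removed (-0.019), and outside the members for Kdm5d (-0.064); the cause was not tested. Leaving out libraries gave log2 changes of 2.45 to 2.63 for Kdm6b and -0.29 to -0.17 for Kdm2b, and every ratio of paralogues kept its direction. The labels do not state whether same-numbered samples pair. Deviations of same-numbered libraries from their group means correlated at -0.009, 0.032 and -0.004, and those of unlike-numbered libraries at -0.18 to 0.166. With 3 libraries per group these correlations can neither show nor exclude pairing. With the replicate block 4828 genes were higher and 4698 lower, beside 4832 and 4744 without it, and the 10 demethylases kept their calls, 9 higher and 1 lower, against 34.9% and 33.9% of all genes. At these depths counting error is small for every member, while Kdm4d, with 6 counts in all competent libraries, lay below the filter of the main fit.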
